A study of Homo sapiens with 12 samples.

Results

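The comparison described here is between DAOY cells on plates coated with the Notch ligand Jagged1 and DAOY cells on Fc-coated control plates, when both also received DAPT. DAOY is a human medulloblastoma line, and DAPT inhibits γ-secretase. Chosen by the plate and drug in their labels were 6 of the 12 libraries of the study, 3 from Jagged1 plates with DAPT and 3 from Fc plates with DAPT. Each trio held 1 library of unmodified DAOY (WT), 1 of a line in which NOTCH1 was knocked out (NOTCH1KO) and 1 of a line in which NOTCH2 was knocked out (NOTCH2KO), so that the plates were compared within each of 3 genotypes. DAPT had been applied for 12 h. The other 6 libraries were the same 3 genotypes on both plates with the solvent DMSO in place of DAPT. How many clones a knockout line came from could not be learned from the sources used. The comparison asks what difference the coated ligand made while γ-secretase was inhibited.

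Notch receptors are activated when a ligand on a neighbouring cell, or fixed to a surface, pulls on the receptor. ADAM10 then cuts the receptor outside the membrane and γ-secretase cuts it within, which frees the intracellular domain. In the nucleus that domain joins the DNA-binding protein RBPJ (CSL) and MAML1 and turns on genes such as HES1, HEY1 and NRARP.

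The RBPJ complex reads the core motif TGGGAA. The promoters of HES1 and HES4, which encode transcriptional repressors of the Notch response, are shown because both hold the core preceded by G (GTGGGAA). The stretches are the 120 bases before the start of the gene (RefSeq, GRCh38.p14), HES1 on the plus strand at chr3:194136028-194136147 and HES4 on the minus strand at chr1:1000098-1000217, with TGGGAA in capitals.
HES1: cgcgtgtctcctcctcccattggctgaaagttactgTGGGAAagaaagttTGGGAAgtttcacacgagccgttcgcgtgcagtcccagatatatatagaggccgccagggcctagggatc
HES4: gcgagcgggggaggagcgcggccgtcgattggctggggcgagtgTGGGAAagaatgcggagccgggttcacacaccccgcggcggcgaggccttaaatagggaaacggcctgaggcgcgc
HES1 held the core at -84 and -70 and HES4 at -76, counted to the first base of the core from the start of the gene. Of all 35116 promoters searched on both strands over 250 bases, 20.8% held TGGGAA and 5.43% held GTGGGAA, every GTGGGAA also counting as a TGGGAA. These letters were not in the windows of NRARP, JAG1, NOTCH1, NOTCH2, NOTCH3, EPAS1 and HIF1A. Of 35 Notch, HIF and smallest-p genes named below, 26 were matched to a promoter, of which 5 held TGGGAA and 3 held GTGGGAA. Beside HES1 and HES4, TGGGAA was in COQ7, SNRPN and NR4A1, at some but not all of their listed starts. In COQ7 it was also GTGGGAA, so the longer core was not confined to HES1 and HES4. These shares were not tested against those of all promoters.

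Libraries held an estimated 18.3 to 22.4 M aligned reads, a figure inferred from the deposited values and not a count. Tested were 17621 genes with a mean of at least 1 TPM (transcript abundance scaled for length and library) over the 12 libraries. NOTCH1 (GRCh37 chr9:139388896-139440314) was at 0.278 TPM on Fc and 0.619 on Jagged1 in the NOTCH1KO libraries with DAPT, against 2.78 to 4.38 in the other 4. NOTCH2 (GRCh37 chr1:120454176-120612240) was at 41.6 and 52.7 in NOTCH2KO, against 74.9 to 111 in the others. Of genes that mark neural or medulloblastoma cells, NCAM1 (median 29.4 TPM over the 6 libraries), ZIC1 (13.4), ZIC2 (11.6), GLI2 (3.95), OTX2 (2.62) and NES (2.36) were present. MYCN had a median of 0.751, and ATOH1 was listed at 0 in 5 of 6.

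With DAPT present, few genes were called between the plates. Of 17621 genes, 1 was called higher on Jagged1 (0.00568%) and 0 lower at an adjusted p under 0.05 in limma, a linear model with the spread moderated across genes. The gene called was CTD-2210P15.2, a processed pseudogene described below, and no protein-coding gene passed. At an unadjusted p under 0.05 there were 836 genes (4.74%), of which 531 (3.01%) were higher and 305 (1.73%) lower on Jagged1. The same contrast without DAPT called 2 genes higher (0.0114%) and 0 lower, but had 1901 genes (10.8%) at an unadjusted p under 0.05, 6.65% of all genes being higher and 4.14% lower. The DMSO count depended on 1 library: without the Jagged1 library of NOTCH2KO with DMSO, 27 genes were called higher and 15 lower, among them HEY1 (adjusted p = 0.0251), VCAM1 (0.0251), ARHGEF6 (0.0355), AMTN (0.0354), LRRC15 (0.0251) and HOXC4 (0.0444).

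**Figure D1:**
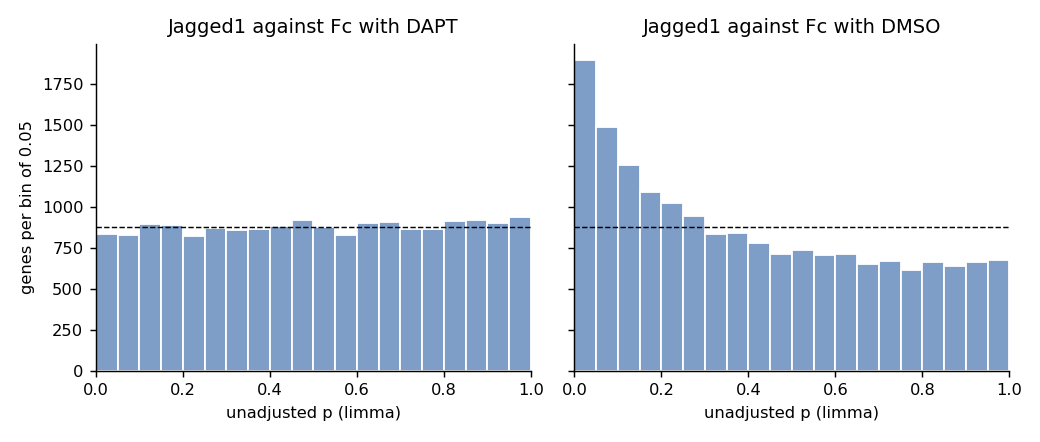
Numbers of genes (vertical axis) in bins of 0.05 of the unadjusted limma p (horizontal axis) for Jagged1 against Fc with DAPT (left) and with DMSO (right); the dashed line at 881 genes is a level distribution over the 17621 genes. With DAPT the bins hold between 822 and 942 genes with 836 in the lowest bin of p, while with DMSO the lowest bin holds 1901.

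Agreement of sign among the 3 genotypes was rarer with DAPT than with DMSO. Higher on Jagged1 in 3 of 3 genotypes were 2101 genes (11.9%) and lower in 3 of 3 were 1768 (10.0%), against 3544 (20.1%) and 2927 (16.6%) with DMSO. Across genes, which are not independent replicates, the differences of WT and NOTCH1KO had a Pearson correlation of -0.22, those of WT and NOTCH2KO 0.10 and those of NOTCH1KO and NOTCH2KO -0.033 with DAPT. With DMSO the values were 0.12, 0.12 and 0.08. All 3 Jagged1 libraries lay above all 3 Fc libraries for 344 genes (1.95%) and below them for 319 (1.81%).

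The precision limits what could be seen. The median standard error was 0.171 on the log2(TPM + 1) scale, which is the scale of every difference below and shrinks differences between low values. The 95% interval of the difference lay within 1 log2 unit of 0 for 15246 genes (86.5%), and the median distance from the estimate to either end of that interval was 0.389. With 3 pairs alone, an exact sign-flip test cannot go below p = 0.25. A p that misses the threshold thus does not show that the plates acted alike.

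Among HES1, HEY1, HES4, NRARP and JAG1, only HES1 had the same sign in the 3 genotypes with DAPT, and only its interval did not hold 0. It was not alone among the listed Notch targets, since CDKN1A, given below, met both and HEY2 had the same sign in 3 of 3. HES1 (GRCh37 chr3:193853934-193856521) was at 23.9, 17.9 and 27.02 TPM in WT, NOTCH1KO and NOTCH2KO on Fc and at 31.8, 24.99 and 35.7 on Jagged1, the order of genotypes in every trio of values below. Each genotype was higher on Jagged1, by 0.40, 0.46 and 0.39 log2, but the groups overlapped because NOTCH2KO on Fc lay above NOTCH1KO on Jagged1. The difference of 0.41 (95% interval 0.14 to 0.69) did not pass (unadjusted p = 0.00840, adjusted p = 1.00, limma). With DMSO, HES1 was at 46.99, 35.5 and 40.2 on Fc and 83.6, 55.00 and 65.4 on Jagged1, a difference of 0.71 that did not pass either (adjusted p = 0.220). The test of the change in the ligand difference, DAPT minus DMSO, gave -0.29 (95% interval -0.69 to 0.10) with an adjusted p of 0.802.

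**Figure D2:**
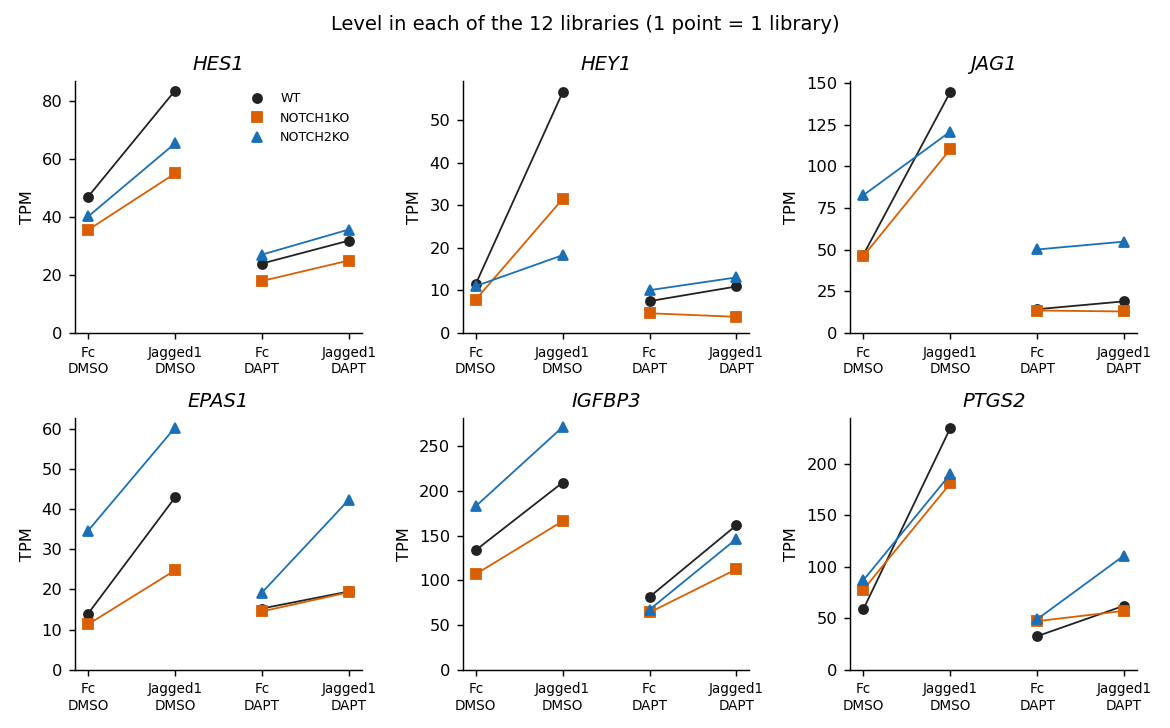
TPM (vertical axis, from 0) of 6 genes in the 12 libraries, by plate and drug (horizontal axis); each point is 1 library, marker and colour give the genotype, and lines join the Fc and Jagged1 libraries of a genotype within a drug. With DAPT the lines of HES1, EPAS1, IGFBP3 and PTGS2 go up from Fc to Jagged1 in 3 of 3 genotypes, whereas for HEY1 and JAG1 the NOTCH1KO line goes down.

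HEY1, a repressor of the same family (GRCh37 chr8:80676245-80680098), was at 7.498, 4.64 and 10.1 TPM on Fc and 10.9, 3.81 and 13.1 on Jagged1 with DAPT. It was higher on Jagged1 in WT and NOTCH2KO and lower in NOTCH1KO (0.49, -0.23 and 0.35 log2), and the groups overlapped. With DMSO it was at 11.5, 7.85 and 11.04 on Fc and 56.6, 31.5 and 18.3 on Jagged1. The difference with DAPT was 0.20 (95% interval -0.70 to 1.104) and that with DMSO 1.59 (95% interval 0.68 to 2.49), and the change between them was -1.38 (95% interval -2.66 to -0.11) (unadjusted p = 0.0367, adjusted p = 0.802).

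HES4 (GRCh37 chr1:934342-935552) was low, at 1.72, 0 and 1.81 TPM on Fc and 0.878, 0.612 and 1.15 on Jagged1, lower on Jagged1 in WT and NOTCH2KO and higher in NOTCH1KO. Its difference of -0.077 (95% interval -0.82 to 0.67) turned to 0.44 with a pseudocount of 0.1 and to 0.15 without the WT libraries, so no direction is given. NRARP (GRCh37 chr9:140194083-140196703), an inhibitor of the Notch complex that is itself induced by Notch, was at 2.82, 3.22 and 3.02 on Fc and 2.25, 3.74 and 2.59 on Jagged1, with overlapping groups and a difference of -0.078 (95% interval -0.49 to 0.34). The value of NRARP was 0.0008 without the WT libraries. HEY2 was at 1.94, 1.604 and 1.29 and 2.25, 2.24 and 1.39, a difference of 0.17 with DAPT against 0.91 with DMSO.

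Among the receptors and ligands, the transcript of the ligand JAG1 (GRCh37 chr20:10618332-10654694) was at 14.3, 13.5 and 50.1 TPM on Fc and 18.99, 12.9 and 54.8 on Jagged1 with DAPT. The difference of 0.15 (95% interval -0.68 to 0.98) had mixed signs over the genotypes (0.39, -0.057 and 0.13), and the groups overlapped. With DMSO, JAG1 was at 46.9, 46.2 and 82.6 and 144, 110.2 and 121, where all 3 Jagged1 libraries lay above all 3 Fc libraries (difference 1.13, adjusted p = 0.370). NOTCH3 (GRCh37 chr19:15270444-15311792), a receptor that is also a Notch target, reached 16.2 TPM in WT on Jagged1 with DMSO. With DAPT it was at 0.144, 0.208 and 0.186 on Jagged1 and 0.126, 0.107 and 1.33 on Fc. Its difference of -0.27 (95% interval -2.02 to 1.47) rested on the Fc library of NOTCH2KO and was 0.07 without the NOTCH2KO libraries. NOTCH2 differed by 0.23 (95% interval -0.10 to 0.57) and NOTCH1 by 0.037 (95% interval -0.34 to 0.41), a value that turned to -0.12 without the NOTCH1KO libraries.

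Of 22 Notch target and feedback genes listed, 17 were tested and 0 were called. In 3 of 3 genotypes, 7 were higher and 0 lower, beside 11.9% and 10.0% of all genes. The median difference of the 17 was 0.15 with DAPT and 0.40 with DMSO, beside 0.018 in both for all genes tested. At an unadjusted p under 0.05, 2 of the 17 were higher and 0 lower, beside 3.01% and 1.73% of all genes. The 2 genes were HES1 and CDKN1A, a cyclin-dependent kinase inhibitor, with 0.47 (0.70, 0.49 and 0.22; levels 53.2, 32.6 and 76.3 TPM on Fc and 87.02, 46.1 and 89.2 on Jagged1). Of the 8 γ-secretase subunits and sheddases, which cut the receptor, 0 were called. The γ-secretase subunit PSENEN had 0.38 (unadjusted p = 0.0164) but 0.047 from read coverage, and the protease ADAM10 had 0.23. Of the 24 Notch glycosylation enzymes and nuclear factors 0 were called, with a median of 0.0913.

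EPAS1 (GRCh37 chr2:46520806-46613836) encodes HIF2α, an oxygen-labile transcription factor and the gene the study followed. With DAPT it was at 15.2, 14.5 and 19.2 TPM on Fc and 19.5, 19.3 and 42.3 on Jagged1. The lowest Jagged1 library lay above the highest Fc library by a margin smaller than the spread within either group, and the 3 genotypes differed by 0.34, 0.39 and 1.101 log2. The difference of 0.61 (95% interval 0.10 to 1.12) did not pass (unadjusted p = 0.0252, adjusted p = 1.00). From read coverage it was 0.44. The deposited coverage was low and overlapped, at 0.336, 0.361 and 0.773 on Fc and 0.543, 0.422 and 1.34 on Jagged1. With DMSO the levels were 13.99, 11.3 and 34.6 and 42.9, 24.8 and 60.3, a difference of 1.13 (95% interval 0.62 to 1.64) with an adjusted p of 0.220. By genotype the DMSO differences were 1.55, 1.06 and 0.78, in NOTCH2KO less than with DAPT. The change between the drugs was -0.52 (95% interval -1.25 to 0.20) (adjusted p = 0.802), an interval that holds 0 and also a loss as large as the DMSO difference.

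HIF1A (GRCh37 chr14:62162231-62214976), which encodes the related HIF1α, was at 224, 195 and 281 TPM on Fc and 270.2, 178 and 289.9 on Jagged1, with overlapping groups and a difference of 0.062 (95% interval -0.20 to 0.32). It was -0.042 without the WT libraries. VEGFA (GRCh37 chr6:43737921-43754224), an angiogenic factor induced by hypoxia, was at 143, 64.2 and 91.1 and 230.3, 63.9 and 119, higher on Jagged1 in WT and NOTCH2KO and level in NOTCH1KO (0.68, -0.007 and 0.39). Its difference of 0.35 with DAPT stood beside 0.36 with DMSO. Of 17 HIF components 0 were called, with a median of 0.0623. Of 40 hypoxia-induced genes 0 were called, and the median was 0.0483. At an unadjusted p under 0.05, 2 of the 40 were higher and 1 lower, beside 3.01% and 1.73% of all genes. ANGPTL4 (0.66, a regulator of lipoprotein lipase) and LOX (-0.38, the collagen crosslinking enzyme) had the largest differences, LOX with -0.34 in DMSO as well.

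Since no protein-coding gene passed, the genes of smallest p with the same sign in 3 of 3 genotypes were described, 12 in each direction. None of the 24 passed with all 12 libraries, and what follows are values and not changes. C1GALT1C1 passed without the WT Jagged1 library with DAPT (adjusted p = 0.0498), TMEM167B without the NOTCH2KO Fc library with DMSO (0.0269) and UQCRB with library weights (0.0208). Of all genes, 2.78% were higher and 1.52% lower in 3 of 3 at an unadjusted p under 0.05. After UQCRB, the smallest p of the 24 was that of SNCAIP, a lower value given below (unadjusted p = 0.000161, adjusted p = 0.506, limma). Next came IGFBP3 (GRCh37 chr7:45951949-45961473), a secreted binding protein of insulin-like growth factors. It was at 81.5, 64.1 and 67.3 TPM on Fc and 162, 113 and 146 on Jagged1, without overlap. The difference was 0.96 (95% interval 0.62 to 1.31) (unadjusted p = 0.000172, adjusted p = 0.506), by genotype 0.98, 0.80 and 1.11. With DMSO, where its levels were higher on both plates (134, 107 and 183 and 209, 166 and 272), the difference was 0.61, and the change between the drugs was 0.35 (95% interval -0.14 to 0.84). Read coverage gave 0.78 with DAPT.

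**Figure D3:**
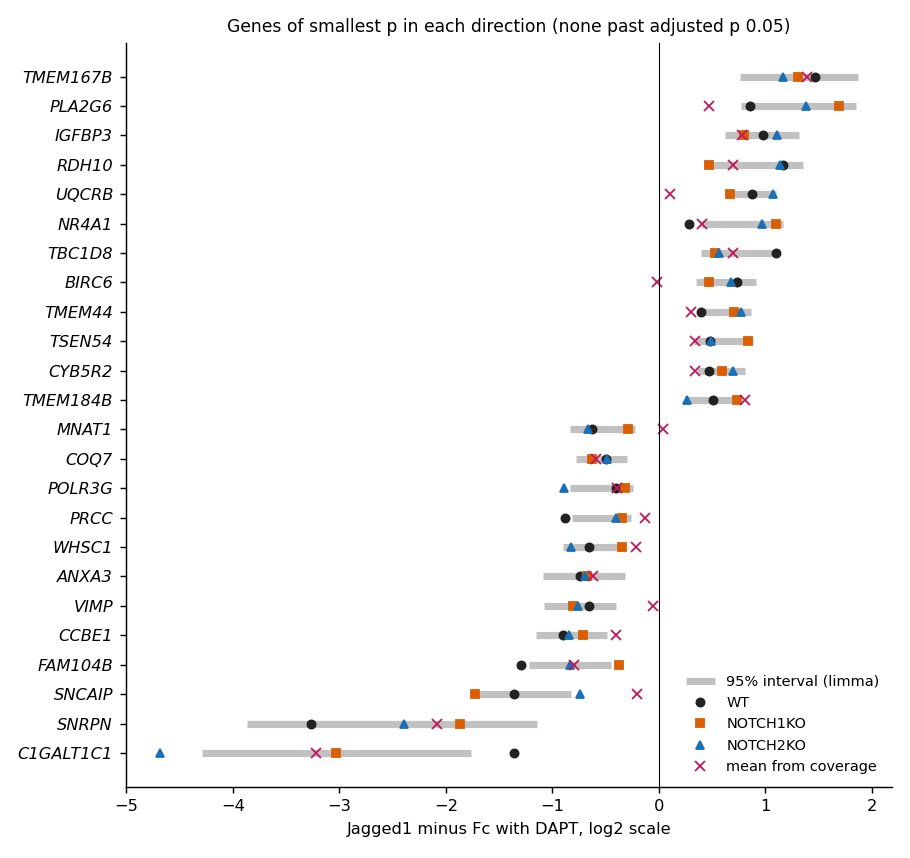
Jagged1 minus Fc with DAPT on the log2 scale (horizontal axis) for the 24 genes of smallest p, 12 in each direction (vertical axis); points are the 3 genotypes, grey bars the 95% interval of the limma fit on TPM, and crosses the mean difference from read coverage scaled to the same sum in every library. The crosses of IGFBP3, TMEM167B, C1GALT1C1, SNRPN and COQ7 lie within the bars, whereas those of UQCRB, BIRC6, VIMP and MNAT1 lie between -0.052 and 0.11.

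UQCRB, a subunit of respiratory complex III (GRCh37 chr8:97238148-97247862), had the smallest p among protein-coding genes (adjusted p = 0.110). It was at 90.3, 76.8 and 93.8 TPM on Fc and 166, 122 and 198 on Jagged1 with DAPT and at 94.5, 75.1 and 87.4 and 102, 77.8 and 98.3 with DMSO, so that the Jagged1 trio with DAPT stood above the other 9 libraries. Read coverage of the same libraries gave 0.11 in place of 0.87. TMEM167B (GRCh37 chr1:109632425-109639556) was at 19.2, 11.8 and 27.3 and 54.8, 30.5 and 62.4, a difference of 1.31 (95% interval 0.76 to 1.86) that was 1.39 from coverage. RDH10, which makes retinaldehyde from retinol, had 0.92 (1.16, 0.47 and 1.14), and 0.70 from coverage. TBC1D8 had 0.73 and 0.70, and TMEM184B 0.50 and 0.80. The other higher values were smaller from coverage than from TPM: PLA2G6, a calcium-independent phospholipase (1.31 and 0.47), the nuclear receptor NR4A1 (0.78 and 0.40), the ubiquitin ligase BIRC6 (0.63 and -0.014), TMEM44 (0.62 and 0.30), the tRNA splicing subunit TSEN54 (0.60 and 0.34) and the reductase CYB5R2 (0.58 and 0.34).

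On the side of lower values, C1GALT1C1 (GRCh37 chrX:119759648-119764005), the chaperone COSMC of the enzyme that extends O-linked glycans, was at 32.03, 46.3 and 38.1 TPM on Fc and 11.9, 4.77 and 0.524 on Jagged1 with DAPT. With DMSO it was between 36.9 and 57.04 in all 6 libraries. The Jagged1 trio with DAPT thus lay below the other 9, by amounts that varied from -1.36 in WT to -4.68 in NOTCH2KO, and the difference of -3.03 (95% interval -4.29 to -1.76) had an adjusted p of 0.653 (coverage -3.22). ANXA3 (GRCh37 chr4:79472673-79531597), a calcium-dependent membrane-binding annexin, was at 22.9, 43.02 and 32.2 on Fc and 13.2, 26.6 and 19.5 on Jagged1, with overlap between the groups and even differences of -0.74, -0.68 and -0.69. It was also lower on Jagged1 with DMSO (-1.05). COQ7, an enzyme of ubiquinone synthesis (GRCh37 chr16:19078921-19091417), was at 21.2, 28.4 and 19.3 and 14.8, 18.1 and 13.5 without overlap (difference -0.54 (95% interval -0.78 to -0.30), coverage -0.59). FAM104B had -0.84 with DAPT and 0.65 with DMSO.

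The remaining lower values were smaller from read coverage, which was also read as log2 of the scaled value plus 1. They were SNCAIP (synphilin-1, -1.28 and -0.21 from coverage), CCBE1 (-0.82 and -0.40), VIMP (selenoprotein S, -0.74 and -0.052), the histone methyltransferase WHSC1 (-0.61 and -0.22), PRCC (-0.54 and -0.13), the RNA polymerase III subunit POLR3G (-0.54 and -0.39) and MNAT1 of the CDK-activating kinase (-0.53 and 0.043). Over the 24 genes the median size was 0.735 from TPM and 0.400 from coverage, 22 kept their sign, and 10 kept a size of at least 0.5. For all 17621 genes the median size was 0.118 from TPM and 0.0980 from coverage. Adding 1 shrinks differences between low values, and coverage was low for several of the 24. For CCBE1 the deposited coverage was 0.231, 0.191 and 0.503 on Fc and 0.145, 0.088 and 0.244 on Jagged1. A smaller value from coverage thus does not by itself show a smaller difference. TPM of a gene also depends on which transcript lengths its reads are assigned to, and coverage does in another way. The part of either in each difference was not tested.

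SNRPN and the gene that overlaps it had differences of opposite sign. SNRPN (GRCh37 chr15:25068794-25223870) encodes a spliceosomal protein and shares a transcript with SNURF on the same strand. SNRPN was at 259, 109 and 242 TPM on Fc and 26.1, 29.2 and 45.4 on Jagged1, whereas the SNURF entry was at 50.4, 98.8 and 44.6 and 296, 157 and 292. Their differences were -2.51 and 1.96, and the summed TPM of SNRPN and its 3 same-strand neighbours differed by 0.000743, with 0.068, -0.16 and 0.093 in the 3 genotypes. How reads were assigned between them was not tested, and both are given as uncertain.

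Beyond 1 log2 unit in the same direction in all 3 genotypes were 17 genes, 7 higher and 10 lower on Jagged1, a group chosen after its values were seen. The largest was that of RP11-446H13.2, a processed pseudogene at 40.3, 43.2 and 40.1 TPM on Fc and listed at 0 in the 3 Jagged1 libraries with DAPT. It did not pass with all 12 libraries (adjusted p = 0.762) but passed without the WT Fc library with DMSO (4.91e-06), without the 4 WT libraries (0.00174) and in a fit of the 6 DAPT libraries alone (0.0192). The 7 protein-coding ones were SNRPN, C1GALT1C1, TMEM167B, SLFN13, SUPT4H1, SOGA3 and PCDHGB7. SLFN13 was at 2.77, 2.58 and 4.87 TPM on Fc and 10.9, 10.1 and 16.9 on Jagged1, but its difference of 1.63 was -0.032 from coverage. SUPT4H1, a subunit of the elongation factor DSIF, had -1.24 and -0.63 from coverage. SOGA3 had 2.36 while KIAA0408, which overlaps it on the same strand, had -0.54, and their sum -0.14. PCDHGB7 had -2.52 and, summed with the 11 same-strand genes of the protocadherin γ cluster it overlaps, 0.40.

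The genes that differed between the plates without DAPT were then read with DAPT, in other libraries of the same 3 genotypes. The genes called with DMSO, NPIPA2 and NPIPA3, had small differences with DAPT (-0.14 and -0.13), as described below. Of all genes, 6.25% were higher and 3.81% lower on Jagged1 in 3 of 3 genotypes at an unadjusted p under 0.05 in DMSO. A wider group, chosen after the data had been seen, held genes with an unadjusted p under 0.05 in DMSO, the same sign in 3 of 3 genotypes and a difference of at least 0.5. Of these, 398 were higher on Jagged1 in DMSO, with a median of 0.68. The rule picked genes on their DMSO values, so a smaller median with DAPT follows in part from the choice and shows no loss. With DAPT the median of the 398 was 0.11, and 274 (68.8%) were above 0. Higher in 3 of 3 genotypes were 116 (29.1%), beside 54.4% above 0 and 11.9% higher in 3 of 3 for all genes. By genotype the medians with DAPT were 0.22 in WT, -0.0071 in NOTCH1KO and 0.16 in NOTCH2KO. The genes lower in DMSO by the same rule had a median of -0.70 there and -0.042 with DAPT, with -0.26, 0.22 and -0.15 in the 3 genotypes.

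**Figure D4:**
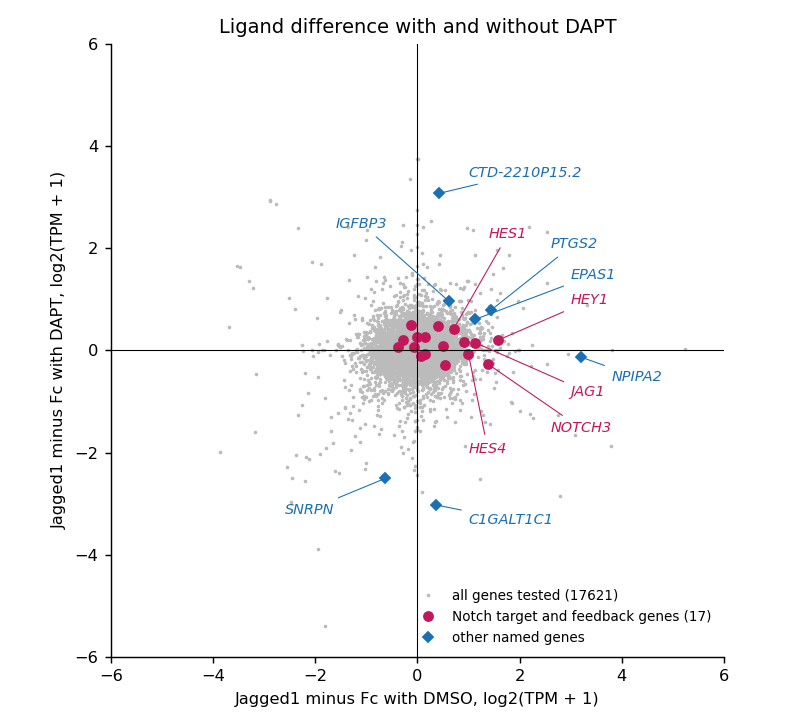
Jagged1 minus Fc with DMSO (horizontal axis) and with DAPT (vertical axis), both in log2(TPM + 1), for the 17621 genes tested (grey), the 17 Notch target and feedback genes (red) and other named genes (blue diamonds); the axes rest on different libraries. HEY1, JAG1 and HES4 lie right of 1 or at it on the DMSO axis and between -0.08 and 0.20 on the DAPT axis, while IGFBP3 and PTGS2 lie at 0.96 and 0.78 on the DAPT axis.

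Of the 8 genes named for being higher on Jagged1 in DMSO, PTGS2, PLA2G4A, RBM47, ARHGEF6 and KYNU were higher in 3 of 3 genotypes with DAPT. By the mean over genotypes each was higher by less than with DMSO, and none passed the threshold. As these genes too were picked on their DMSO values, a smaller value with DAPT follows in part from the choice. In NOTCH2KO alone, PTGS2 had 1.16 with DAPT and 1.12 with DMSO, and PLA2G4A 0.89 and 0.72. In WT and NOTCH1KO both had smaller values with DAPT. PTGS2 (cyclooxygenase-2, GRCh37 chr1:186640923-186649559) was at 58.7, 77.7 and 86.9 TPM on Fc and 234, 181 and 189.8 on Jagged1 with DMSO. With DAPT it was at 32.5, 47.1 and 49.01 and 62.1, 57.1 and 111, again without overlap. The differences were 1.44 (95% interval 0.92 to 1.95) with DMSO and 0.78 (95% interval 0.26 to 1.301) with DAPT, the second with 0.91, 0.27 and 1.16 by genotype and an unadjusted p of 0.00809 (adjusted p = 1.00). PLA2G4A, the phospholipase that releases arachidonic acid (GRCh37 chr1:186798085-186958113), was at 31.6, 40.8 and 39.4 on Fc and 47.9, 46.5 and 74.04 on Jagged1 with DAPT, a difference of 0.55 (95% interval 0.22 to 0.88) beside 0.98 with DMSO. Coverage gave 0.90 for PTGS2 and 0.53 for PLA2G4A.

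The RNA-binding protein gene RBM47 had 0.45 with DAPT (0.46, 0.43 and 0.45; unadjusted p = 0.00244) and 0.70 with DMSO, the exchange factor gene ARHGEF6 0.40 and 1.01, IGFBP1 0.45 and 1.47, and KYNU, an enzyme of tryptophan breakdown, 0.29 and 0.88. None of these changes between the drugs passed (lowest unadjusted p = 0.00710, for KYNU, adjusted p = 0.802). Of the genes lower on Jagged1 in DMSO, HOXC4 had -0.46 with DAPT and -3.16 with DMSO. It overlaps HOXC5, HOXC6 and another HOXC4 entry on its strand. That entry had 0.88 with DAPT (-3.17, 2.75 and 3.06). With DAPT, the summed TPM of HOXC4 and its 3 same-strand neighbours differed by 0.16 (-0.62, 0.86 and 0.23). How reads were assigned between them was not tested. With DAPT and then with DMSO, CLASRP had 0.015 and -1.095, the actin-binding protein gene TAGLN -0.052 and -1.28, and AMTN -0.42 and -1.21. LRRC15 had -0.54 and -1.12, and the dynein light chain gene DYNLL1 -0.42 and -1.09. The signs of CLASRP and TAGLN with DAPT were not stable, CLASRP turning negative after median-centring (-0.021) and TAGLN positive with library weights (0.12).

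The test of the difference between the ligand effects, DAPT minus DMSO, called 1 gene higher (0.00568%) and 2 lower (0.0114%), 0.017% in all, with 1000 genes (5.68%) at an unadjusted p under 0.05, of which 2.74% of all genes were higher and 2.93% lower. CTD-2210P15.2 (GRCh37 chr5:43587020-43588325) was listed at 0 in the 3 Fc libraries with DAPT, at 8.86, 7.48 and 6.16 TPM on Jagged1 with DAPT, and at 7.04, 6.68 and 5.93 and 8.85, 10.9 and 7.92 with DMSO (adjusted p = 0.000123 for the plates with DAPT). It overlaps NNT-AS1 on the same strand, which had 0.052, and the sum of both differed by 0.96. Its call was lost without the NOTCH2KO libraries (adjusted p = 0.111) and in a fit of the 6 DAPT libraries alone (adjusted p = 0.184). NPIPA2 (GRCh37 chr16:14841923-14859270) and NPIPA3 (GRCh37 chr16:14802801-14820195) belong to a family of near-identical copies on chromosome 16, whose reads could be split between members. Both were listed at 0 in the 3 Fc libraries with DMSO and lay between 6.77 and 10.5 TPM in the other 9. These 3 were the only genes tested that were at 0 in all libraries of 1 culture and at 1 TPM or more in the other 9.

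The other genes named for this test did not pass with all 12 libraries. RP4-706A16.3, a processed pseudogene (GRCh37 chr1:77594768-77595384), was at 389, 418 and 414 TPM on Fc with DAPT and between 241 and 269.5 in the other 9 libraries, so the Fc trio stood apart. Its difference with DAPT was -0.65 (95% interval -0.81 to -0.50) with an adjusted p of 0.0615, and 0.0255 with coverage in place of TPM. RP11-618G20.1, a processed transcript that overlaps HIF1A on its strand, was listed at 0 on Fc with DMSO and on Jagged1 with DAPT, and at 6.24, 6.53 and 10.3 and 0, 3.73 and 5.73 in the other cultures, and it passed this test without the WT Fc library with DAPT (adjusted p = 0.00164) and without the 4 WT libraries (0.0301). TSEN54 had 0.60 with DAPT and -0.51 with DMSO (change 1.11, adjusted p = 0.435). FAM104B went in value from 0.65 to -0.84 (adjusted p = 0.525) and DHRS12 from -0.75 to 0.82 (adjusted p = 0.605), all values that did not pass.

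Gene lists were read by counts, none of them tested as a set. For every list, the shares of all genes at an unadjusted p under 0.05 were 3.01% higher and 1.73% lower. Those in 3 of 3 genotypes were 11.9% higher and 10.0% lower. In 0 of the 30 lists was a member called. Of 16 integrins, the receptors for matrix, 3 were higher and 0 lower at an unadjusted p under 0.05 (18.8%, beside 3.01% of all genes), 6 were higher and 3 lower in 3 of 3, and the median was 0.17. The collagen-binding subunit gene ITGA11 was at 23.5, 16.2 and 13.6 TPM on Fc and 32.4, 29.6 and 26.6 on Jagged1, without overlap, a difference of 0.73 (95% interval 0.31 to 1.16) (adjusted p = 0.910) beside 0.65 with DMSO. ITGB4 had 0.88, from 0.0549 to 1.98 TPM in NOTCH1KO, and ITGA3 0.36. Of 31 collagen, laminin and fibronectin genes, 1 was higher and 0 lower at that p, with a median of 0.12.

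Of 41 interferon-stimulated genes, 5 were higher and 0 lower at an unadjusted p under 0.05, beside 3.01% and 1.73% of all genes. In 3 of 3, 14 were higher and 1 lower, beside 11.9% and 10.0% of all genes. The list median was 0.16 with DAPT and 0.12 with DMSO. The 5 were the oligoadenylate synthetase family genes OAS2 (0.74) and OASL (0.42), IFI6 (0.51), BST2 (0.44) and IFI35 (0.35). In each the NOTCH1KO pair had the largest difference, with OAS2 at 1.53 there and 0.18 in NOTCH2KO. NF-κB targets and cytokines had 2 of 27 higher at that p, PTGS2 and TNFAIP2, and a median of 0.0623 beside 0.41 with DMSO. TNFAIP2 had 1.06, 1.71 and -0.016 over the genotypes. The adhesion molecule VCAM1 was at 13.1, 6.76 and 4.78 TPM on Fc and 34.3, 11.1 and 7.21 on Jagged1, a difference of 0.83 (95% interval -0.36 to 2.01) beside 2.07 with DMSO.

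**Figure D5:**
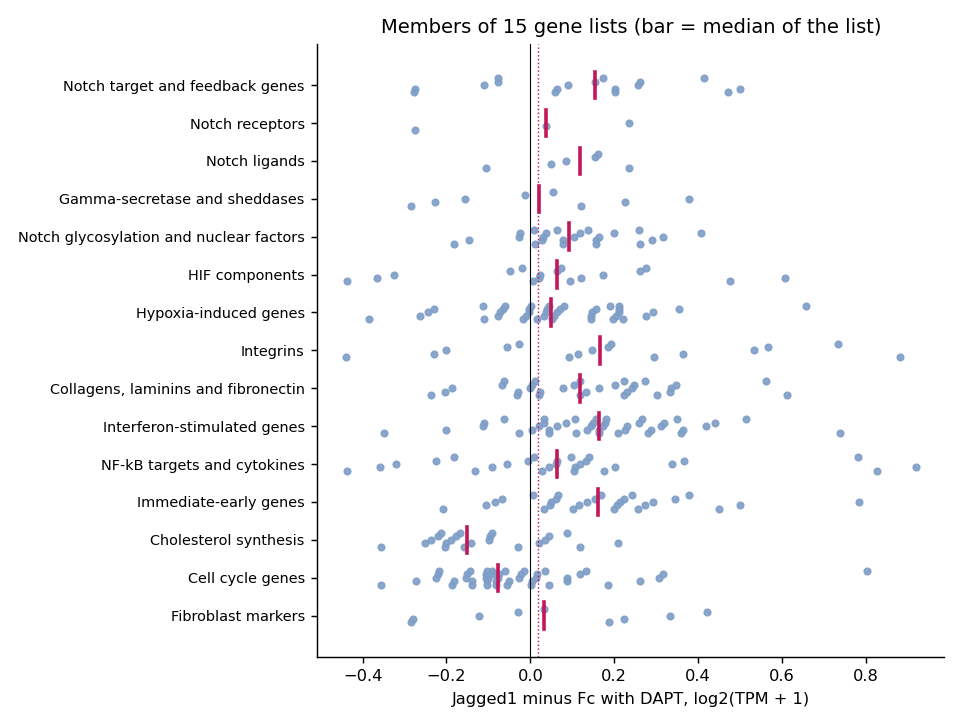
Jagged1 minus Fc with DAPT in log2(TPM + 1) (horizontal axis) for the tested members of 15 gene lists (vertical axis); each point is a gene, red bars are list medians and the dotted line is the median of all genes tested, 0.018. Medians lie between -0.15 for cholesterol synthesis and 0.17 for integrins, and no point is a called gene.

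Medians lay below 0 in cholesterol synthesis and cell cycle genes. They were also below 0 in mitochondrially encoded genes (-0.065) and in neural (-0.018), glial (-0.021) and blood and endothelial markers (-0.18). Only 2 glial and 2 blood and endothelial markers were tested. For the counts that follow, 11.9% of all genes were higher and 10.0% lower in 3 of 3 genotypes. Of 22 cholesterol synthesis genes 0 were higher and 7 lower in 3 of 3 genotypes, the median was -0.15 (-0.0787 with DMSO), and the genes of squalene metabolism FDFT1 (-0.36, 102, 119 and 134 TPM on Fc and 78.2, 102 and 96.4 on Jagged1) and SQLE (-0.21) had an unadjusted p under 0.05. Of 45 cell cycle genes 2 were higher and 10 lower in 3 of 3, with a median of -0.0775. The cyclin gene CCNE2 (-0.23) was the 1 at that p, and the proliferation marker MKI67 had 1.58, 1.35 and -0.52 over the genotypes. Of 28 immediate-early genes 7 were higher and 1 lower in 3 of 3, with a median of 0.16.

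Of 28 YAP and SRF targets 3 were higher and 3 lower in 3 of 3. The cytoplasmic actin gene ACTG1 was at 2743, 1863 and 4259 TPM on Fc and 644, 3194 and 747 on Jagged1, lower in WT and NOTCH2KO and higher in NOTCH1KO (-2.09, 0.78 and -2.51). The smooth muscle actin gene ACTA2 was at 3.34, 1.24 and 2.75 and 5.33, 1.93 and 5.56, a difference of 0.58 with DAPT and -0.28 with DMSO. AXL, a receptor tyrosine kinase gene, had -0.36, -0.34 and -0.38.

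Of 23 matrix proteases and inhibitors 3 were higher and 0 lower at an unadjusted p under 0.05, with a median of 0.12. They were the metalloprotease inhibitor genes TIMP3 (0.32) and TIMP1 (0.28) and the membrane metalloprotease gene MMP14 (0.21, 412, 150.3 and 258 TPM on Fc and 448, 189 and 296 on Jagged1). Of 30 genes for other γ-secretase substrates, 0 were higher and 2 lower at that p, the receptor gene IL6R (-0.64) and the growth factor gene NRG1 (-0.36, 35.8, 38.9 and 49.5 and 30.8, 28.5 and 36.1), with a list median of 0.11. Of 15 mitochondrially encoded genes 0 were higher and 1 lower at that p, MT-ND2 (-2.102), with 1712, 1701 and 2262 TPM on Fc and 164, 1568 and 322 on Jagged1. Of the same list, MT-ND4 was at 2772 TPM in WT on Jagged1 and between 1.61 and 1.98 in the other 5 libraries with DAPT, and MT-ATP6 was at 10.8 in WT on Fc and between 1493 and 2169 in the other 5, so that single libraries set both differences.

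Medians of the remaining lists, cell type markers aside, ranged from 0.032 to 0.15, and none of their members was called. The TGF-β and BMP targets (22 tested, 5 higher and 1 lower in 3 of 3, median 0.15) and the WNT pathway (21 tested, 6 higher and 2 lower in 3 of 3, median 0.065) had 0 members at an unadjusted p under 0.05. The Sonic hedgehog pathway, which drives a class of medulloblastoma (11 tested, 3 higher and 1 lower in 3 of 3, median 0.11), had 1, the coreceptor gene GAS1 (0.34, 6.01, 2.05 and 6.38 TPM on Fc and 8.42, 2.53 and 8.58 on Jagged1). The p53 targets (19 tested, 3 higher and 1 lower in 3 of 3, median 0.12) had CDKN1A, the vascular and guidance genes (25 tested, 2 higher and 2 lower in 3 of 3, median 0.032) had the semaphorin gene SEMA3F (0.37), and the replication-dependent histones (15 tested, 3 higher and 0 lower in 3 of 3, median 0.074) had HIST1H1C (0.35). The integrated stress and unfolded protein response (26 tested, 2 higher and 1 lower in 3 of 3, median 0.059) had 0. Notch ligands (6 tested, 1 higher and 0 lower in 3 of 3, median 0.12) and receptors (3 tested, 1 higher and 0 lower in 3 of 3, median 0.037) had 0 as well.

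By the sums of the lists, markers of other cell types did not separate the plates. Of 12 blood and endothelial markers 9 were under 1 TPM in all 6 libraries, with PTPRC, CD3E, HBB and PECAM1 among those listed at 0, and the sum of the list was 16.2 to 28.3 TPM on Fc and 13.05 to 21.5 on Jagged1. The 10 glial markers summed to 6.897 to 9.68 and 6.43 to 10.9, with S100B and SOX10 at 0. The 12 epithelial markers summed to 608 to 1060.2 and 750.0 to 1012, with CDH1 under 1. The 21 neural markers summed to 129.8 to 247 and 159 to 215, and of these SOX2 (0.52) and the adhesion molecule L1CAM (0.68, 0.11 from coverage) had an unadjusted p under 0.05. The 11 fibroblast markers summed to 4658 to 6378 and 4920.2 to 5710.3, with S100A4 at 0.42, THY1 at -0.28 and FAP at -0.29. Of the 9 fibroblast markers tested, 1 was higher and 2 lower at an unadjusted p under 0.05, beside 3.01% and 1.73% of all genes. The range on Jagged1 overlapped that on Fc in all 5 lists, in a culture of 1 cell line where fewer cells of a kind and less RNA per cell cannot be told apart.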

How the data were processed

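RNA was sequenced from 12 cultures of DAOY cells, 1 library for each of 3 genotypes and 4 cultures. Per the labels, the authors deposited a table per library with coverage, FPKM and TPM values, made from reads that their processing notes tie to bcl2fastq 2.17, CASAVA and GRCh37. Of the aligner, the quantifier, the annotation and the handling of reads shared by overlapping genes, nothing is given in the sources used here. Deposited TPM was used as it stood, the deposited FPKM and the deposited coverage only as alternatives and to estimate the aligned reads. That estimate took the largest ratio of coverage to FPKM in a library, with reads taken as 51 bases long. TPM was summed per gene ID, and gene types came from GENCODE v29 for 52526 of 63677 IDs. Genes with a mean of at least 1 TPM were fitted as log2(TPM + 1) in limma 3.58.1 (R 4.3.3; tables in Python 3.11.15) with genotype and culture as additive terms, a mean-variance trend and Benjamini-Hochberg adjustment over 17621 genes. The same genotype is the pairing, and the block for it is in the fit. With 1 library per genotype and culture, the error is the departure from additivity (6 residual degrees of freedom), and it cannot be told apart from genotype-specific effects. Nothing in the labels says that cultures were repeated. The fit was also run on simulated data with independent normal noise around additive genotype means. Such data hold no genotype-specific effects and no shared reads, so that run does not bear on either.

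Named were 11 Notch and HIF genes, the 12 genes of each direction with the largest difference past adjusted p 0.05 or, where fewer passed, of smallest p with the same sign in 3 of 3 genotypes, a difference of at least 0.5 and a mean of at least 2 TPM over the 6 DAPT libraries, leaving out clone-named, antisense, long intergenic and small RNAs and pseudogenes. The 8 of each direction in DMSO followed the same rule. For the difference of effects, where fewer than 8 passed, the 8 genes of smallest unadjusted p were named, without these filters. For each of 30 lists, up to 4 members of largest absolute difference were named, called members first. Genes outside these were chosen after their values were seen, and 1 gene that the rule named for DMSO is not reported here. The members and lists were chosen with earlier results of these data known. Alternatives were the pseudocount, the filter, FPKM, coverage, centring, weights, the 6 DAPT libraries alone, other terms, the threshold and leaving out libraries or genotypes. Coverage scaled to the same sum as TPM, leaving out DMSO libraries, and coverage or a genotype left out for the difference of effects were chosen after seeing the data. Promoters were matched by symbol to RefSeq (GRCh38.p14), with 26 of 35 named genes found.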

Additional observations from a re-analysis of the deposited data

Results flagged for a closer look

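The Jagged1 effect with DAPT differed from that with DMSO, by the interaction contrast in limma, for NPIPA2 (-3.35, adjusted p = 0.000245), NPIPA3 (-3.32) and the pseudogene CTD-2210P15.2 (2.65, adjusted p = 0.00254). All 3 genotypes showed the direction in each. Each of these values rests on 1 trio of Fc libraries in which the gene was listed at 0, with DMSO for NPIPA2 and NPIPA3 and with DAPT for CTD-2210P15.2, so the size depends on the pseudocount and is no bound. NPIPA2 and NPIPA3 are near-identical copies, and CTD-2210P15.2 lies within NNT-AS1 on the same strand. The assignment of shared reads was not tested. The CTD-2210P15.2 call was lost without the WT libraries (adjusted p = 0.202), without the NOTCH1KO libraries (0.113) and without the NOTCH2KO libraries (0.209). The calls of NPIPA2 and NPIPA3 were lost without the WT libraries (adjusted p = 0.0679 for both) and without the NOTCH2KO libraries (0.138 for both).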

How the results depend on the processing

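Over 88 genes and 26 settings, 40 of 2275 differences with DAPT changed sign, and 76 genes kept theirs throughout. The number of genes called higher with DAPT (1) became 2 with genotype-by-drug terms or library weights, 5 without the WT libraries, 3 without the NOTCH1KO libraries and 0 without the NOTCH2KO libraries. The number called lower (0) became 2 with no filter, 1 with a mean TPM of at least 5, with coverage at either scaling, with library weights or at adjusted p under 0.10, 3 without WT and 2 without NOTCH1KO. For the difference of effects, the number called higher (1) became 3 with no filter, 2 with genotype-by-drug terms, 2 without WT and 0 without NOTCH2KO, and the number called lower (2) stayed at 2 without WT with other genes (RP11-446H13.2 and RP11-618G20.1 in place of NPIPA2 and NPIPA3) and became 5 without NOTCH1KO and 0 without NOTCH2KO. The causes were not tested. The pseudogene RP4-706A16.3 passed with a mean TPM of at least 5 (adjusted p = 0.0487), with coverage (0.0255) and with weights (0.00837), and UQCRB passed with weights (0.0208). Leaving out 1 library, C1GALT1C1 passed without the WT Jagged1 library with DAPT (0.0498), TMEM167B without the NOTCH2KO Fc library with DMSO (0.0269) and RP11-618G20.1 without the WT Fc library with DAPT (0.0401, and 0.00164 for the difference of effects, 0.0301 without all WT libraries).

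The genotype is the pairing. With the replicate block in a fit of the 6 DAPT libraries alone, 0 genes were called higher and 1 lower (RP11-446H13.2, adjusted p = 0.0192), and CTD-2210P15.2 lost its call (adjusted p = 0.184). With no replicate block in the fit of 12, the counts were 1 and 0 with DAPT and 1 and 2 for the difference of effects, as with it.

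Leaving out 1 library at a time gave 1 to 4 genes called higher, with 4 without the Fc library of NOTCH2KO with DAPT and 2 without its Fc library with DMSO or without either the WT or the NOTCH2KO Jagged1 library with DAPT. It gave 0 to 2 called lower, 2 without the WT or the NOTCH1KO Jagged1 library with DAPT and 1 without the WT Fc library with either drug or the NOTCH2KO Jagged1 library with DMSO. For the difference of effects it gave 1 to 3 higher (2 without the WT Jagged1 library with DAPT, and 3 without the NOTCH2KO Jagged1 library with DAPT or either NOTCH1KO library with DMSO) and 2 to 4 lower (4 without the NOTCH1KO Jagged1 library with DAPT, which also gave 1 list member called in place of 0). Named genes that changed sign ranged from -0.087 to 0.14 for CLASRP, -0.34 to 0.19 for HES4, -0.13 to 0.54 for HEY1, -0.048 to 0.13 for HIF1A, -0.15 to 0.47 for JAG1, -0.11 to 0.16 for NOTCH1, -0.77 to 0.56 for NOTCH3, -0.18 to 0.039 for NRARP and -0.23 to 0.16 for TAGLN.

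Signs also turned for NOTCH1 with FPKM (-0.0094), weights (-0.11) and without NOTCH1KO (-0.12), for NOTCH3 with coverage (0.010, or 0.037 scaled to the sum of TPM) and without NOTCH2KO (0.074), for JAG1 with weights (-0.043), for HES4 with a pseudocount of 0.1 (0.44), scaled coverage (0.045), without WT (0.15) and without NOTCH2KO (0.076), and for NRARP (0.0008) and HIF1A (-0.042) without WT. With coverage at the 2 scalings they turned for BIRC6 (-0.016 and -0.014), MNAT1 (0.040 and 0.043) and SLFN13 (-0.024 and -0.032). CLASRP turned with centring (-0.021), without NOTCH1KO (-0.094) and without NOTCH2KO (-0.050), and TAGLN with weights (0.12) and without WT (0.10).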
